A study of Mus musculus with 7 samples.

Results

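The BCL2 family genes described here were 10 genes chosen by name: Bcl2, Bcl2l1, Mcl1, Bax, Bak1, Bcl2l11, Bbc3, Pmaip1, Bid and Bmf. A gene was read from a probe set of the mouse array with exactly 1 gene symbol, and 9 of the 10 had 1 such probe set, among 19938 genes tested. Bax had none in the annotation used and is not analysed here. Total RNA of mouse cells was measured on 7 arrays. OG2 embryonic stem (ES) cells in N2B27(2i), a medium with inhibitors of MEK and GSK3, gave 1 array. Induced pluripotent stem (iPS) line O4-1 in the same 2i medium gave 1 array. Lines O4-1, O4-2 and O4-4 in KSR medium gave 3 arrays, and all iPS lines came from mouse embryonic fibroblasts (MEFs) infected with Oct4. MEFs taken at 13.5 days post coitum from 129/OG2 mice gave 1 array in the medium called iCD1 and 1 array in FBS. Whether the 3 lines were separate clones or came from separate infections is not stated in the labels, so that p-values measure only the spread between these arrays. The cell names were checked against markers. The mean of 10 pluripotency markers lay between 9.77 and 10.02 on the 5 pluripotent arrays, against 4.35 on each MEF array. The mean of 10 fibroblast markers lay between 7.02 and 7.87 on the pluripotent arrays, against 10.57 in iCD1 and 10.30 in FBS. Levels are given as log2 expression (the median of each array lay between 4.97 and 5.03), and each difference is a log2 difference, where 1 stands for 2-fold. Precision is limited by how few arrays there were, and the files hold no background signal.

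Proteins of the BCL2 family decide whether the outer mitochondrial membrane is opened, which releases cytochrome c and starts the caspases. Pro-survival members such as BCL2, BCL-XL (from Bcl2l1) and MCL1 hold the effectors BAX and BAK in check. BH3-only proteins, among them BIM (from Bcl2l11), PUMA (Bbc3), NOXA (Pmaip1), BID and BMF, bind the pro-survival proteins or the effectors and favour death. Pluripotent cells are known to be readily killed by DNA damage, and MCL1 and BIM are known to be controlled in large part through the stability of the proteins, which arrays do not measure.

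The promoters of Bcl2, Mcl1 and Bid are shown because these were the members that passed the test between pluripotent cells and MEFs. RefSeq (build GRCm38.p6) gave windows for 9 of the 10 members, and the 250 bases before the annotated start are printed on the gene's strand. Bcl2 lies at chr1:106714291-106714540 on the minus strand, Mcl1 at chr3:95658471-95658720 on the plus strand and Bid at chr6:120916825-120917074 on the minus strand. Capitals mark the GC box GGGCGG on either strand.
Bcl2: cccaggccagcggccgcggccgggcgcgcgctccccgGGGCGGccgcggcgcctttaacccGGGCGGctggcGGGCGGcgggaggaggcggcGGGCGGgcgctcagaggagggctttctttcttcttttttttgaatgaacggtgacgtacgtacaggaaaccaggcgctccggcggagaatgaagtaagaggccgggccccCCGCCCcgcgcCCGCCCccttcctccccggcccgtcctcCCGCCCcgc
Mcl1: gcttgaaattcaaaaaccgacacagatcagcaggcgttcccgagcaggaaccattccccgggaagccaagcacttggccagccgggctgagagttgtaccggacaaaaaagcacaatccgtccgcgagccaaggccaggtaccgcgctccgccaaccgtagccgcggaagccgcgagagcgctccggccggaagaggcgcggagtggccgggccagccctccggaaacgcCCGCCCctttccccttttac
Bid: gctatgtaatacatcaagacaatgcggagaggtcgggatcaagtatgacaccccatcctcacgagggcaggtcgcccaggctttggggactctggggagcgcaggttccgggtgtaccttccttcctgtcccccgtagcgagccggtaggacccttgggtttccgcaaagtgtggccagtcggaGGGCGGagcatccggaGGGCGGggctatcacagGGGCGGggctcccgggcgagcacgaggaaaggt
The window of Bcl2 held 7 GC boxes, that of Mcl1 held 1 and that of Bid held 3, and 32.7% of 32851 windows of this length held at least 1. The CCAAT box (CCAAT, either strand) was found in none of the 3 windows and in 33.8% of all windows. The TATA box (TATAAA, either strand) was found in none of the 3 and in 12.4% of all. The windows of Bcl2, Mcl1 and Bid were 74.8%, 64.4% and 63.6% G and C. Among members that did not pass, the windows of Bbc3 held 1, 5 and 7 GC boxes and those of Bcl2l11 held 2 and 3. Those of Bak1, Bcl2l1 and Bmf held 0. The CCAAT box was found in windows of Bbc3, Bcl2l11 and Bmf. A relation of these sequences to expression was not tested.

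The first comparison, of pluripotent cells against MEFs, concerns the balance of pro-survival and pro-death transcripts in the cell types. Among pro-survival genes Bcl2 fell and Mcl1 rose, and among pro-death genes Bid rose, in the 5 pluripotent arrays against the 2 MEF arrays. The other 6 measured members, Bcl2l1, Bak1, Bcl2l11, Bbc3, Pmaip1 and Bmf, did not pass the test. Thus 2 of 9 members rose, against 15.6% of all genes, and 1 of 9 fell, against 17.5% of all genes (limma, adjusted p under 0.05, 1 fit of 2 groups). A share of 3 in 9 is close to the 33.1% of all genes that passed in either direction. The median difference of the 9 members was 0.13, beside 0.02 for all genes. The pluripotent cells were grown in other media than the MEFs, and cell type and medium cannot be told apart. In bulk RNA, fewer cells of a type and less RNA per cell cannot be told apart either.

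**Figure D1:**
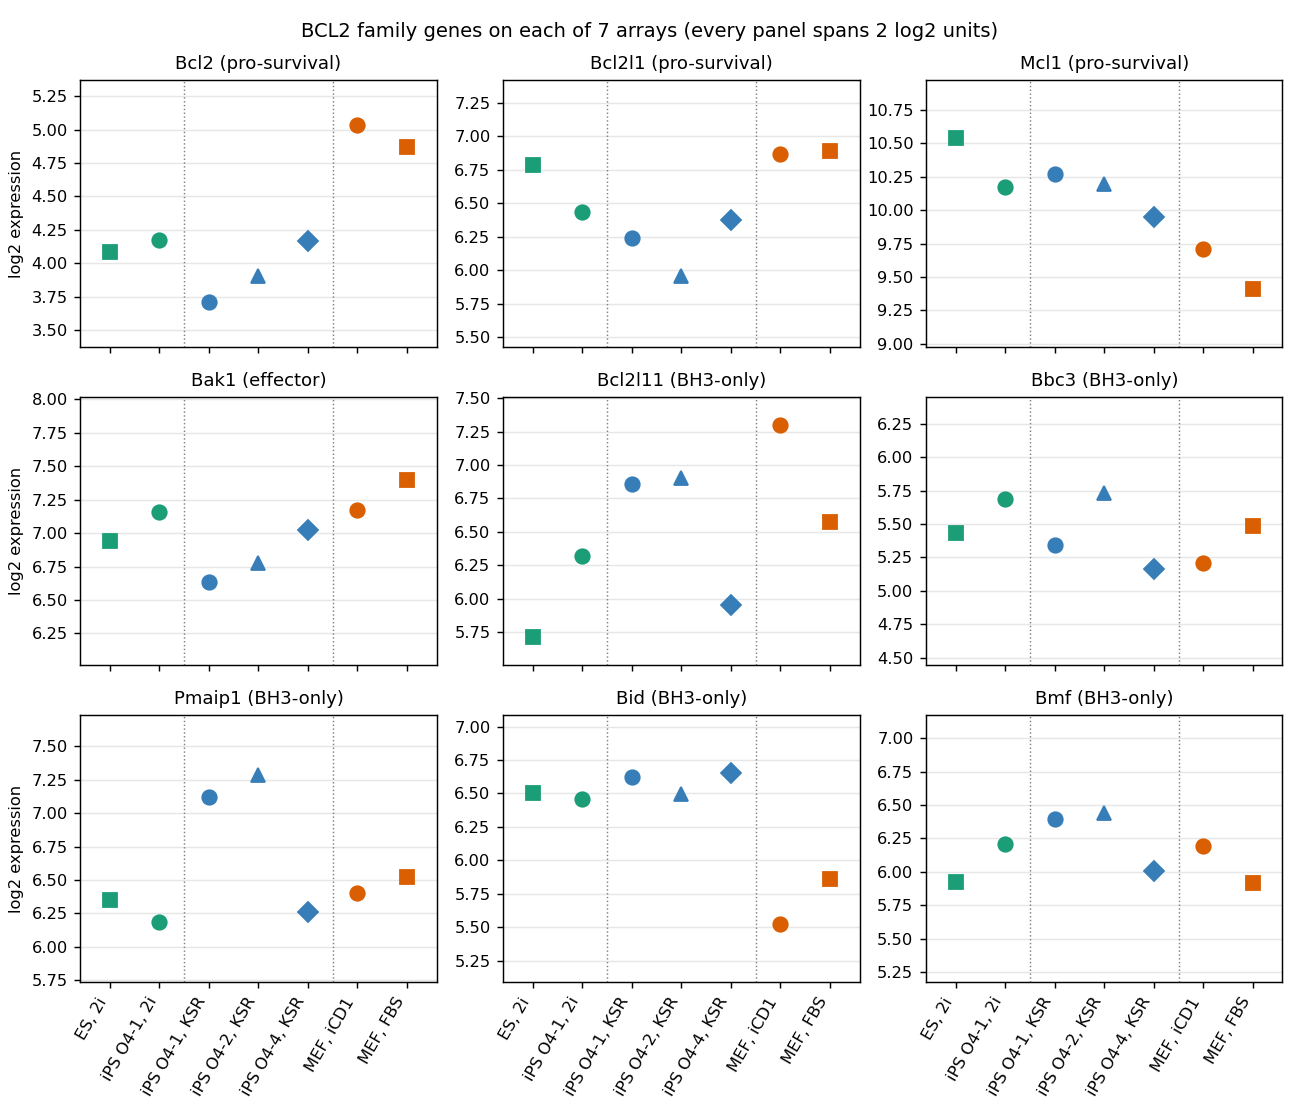
Log2 expression (y axis, every panel spanning the same number of log2 units) of 9 BCL2 family genes on each of 7 arrays, with 1 point per array, ES and iPS cells in 2i in green, KSR iPS lines in blue and MEFs in orange. Bcl2 lies at 3.71 to 4.18 on the pluripotent arrays and at 5.04 and 4.87 in MEFs, while Pmaip1 and Bcl2l11 divide the pluripotent arrays.

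Bcl2, the founding pro-survival gene of the family, was at 4.09 in ES cells in 2i, 4.18 in line O4-1 in 2i and 3.71, 3.90 and 4.17 in lines O4-1, O4-2 and O4-4 in KSR. In MEFs it was at 5.04 in iCD1 and 4.87 in FBS. All pluripotent arrays thus lay below both MEF arrays. Bcl2 averaged 4.01 ± 0.20 (SD, n = 5) in pluripotent cells and 4.95 ± 0.12 (SD, n = 2) in MEFs, a difference of -0.95 ± 0.15 (SE; limma, adjusted p = 0.00192), or 0.519 times the MEF level. On 6 of the 7 arrays the value was below the array median, the exception being iCD1 MEFs.

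Mcl1, whose short-lived protein guards against BAK and binds BIM and NOXA, moved the other way. It was at 10.54 in ES cells in 2i, 10.18 in line O4-1 in 2i and 10.27, 10.19 and 9.95 in lines O4-1, O4-2 and O4-4 in KSR, against 9.71 in iCD1 MEFs and 9.41 in FBS MEFs. The groups did not overlap, with line O4-4 the nearest to the MEFs. The difference was 0.66 ± 0.17 (SE; limma, adjusted p = 0.0158), 1.58 times the MEF level. Without the FBS array it was 0.52 and did not pass (limma, adjusted p = 0.132).

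Bcl2l1 encodes BCL-XL, and an alternative short form favours death, which this probe set does not separate. It was at 6.79 in ES cells in 2i, 6.44 in line O4-1 in 2i and 6.24, 5.96 and 6.38 in lines O4-1, O4-2 and O4-4 in KSR, against 6.87 in iCD1 and 6.89 in FBS. All pluripotent values lay below the MEF values, ES cells being the nearest. The difference of -0.52 ± 0.20 did not pass (limma, adjusted p = 0.0822, 95% interval -0.98 to -0.06 before adjustment). Without the ES array it was -0.63 and passed (limma, adjusted p = 0.0198).

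Among the pro-death members Bid showed the narrowest spread on the pluripotent arrays. BID is cut by caspase 8 and so links death receptors to mitochondria. Bid was at 6.50 in ES cells in 2i, 6.46 in line O4-1 in 2i and 6.62, 6.50 and 6.65 in lines O4-1, O4-2 and O4-4 in KSR, against 5.53 in iCD1 MEFs and 5.86 in FBS MEFs. It averaged 6.55 ± 0.09 (SD, n = 5) in pluripotent cells and 5.70 ± 0.24 (SD, n = 2) in MEFs. The difference of 0.85 ± 0.13 (SE; limma, adjusted p = 0.00122) was 1.80-fold.

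Bak1, the measured effector, was at 6.94 in ES cells in 2i, 7.16 in line O4-1 in 2i and 6.64, 6.78 and 7.02 in lines O4-1, O4-2 and O4-4 in KSR, against 7.18 in iCD1 and 7.40 in FBS. The groups did not overlap, but line O4-1 in 2i and iCD1 MEFs were almost level. Its difference of -0.38 ± 0.16 did not pass (limma, adjusted p = 0.108). The BH3-only genes Bcl2l11, Bbc3, Pmaip1 and Bmf overlapped between pluripotent cells and MEFs. Their differences were -0.58 ± 0.36, 0.13 ± 0.18, 0.18 ± 0.32 and 0.14 ± 0.17 (SE), with adjusted p between 0.273 and 0.748 in limma. The 95% interval of Bcl2l11 ran from -1.41 to 0.24 and that of Pmaip1 from -0.56 to 0.92, so that changes of near 2-fold in Bcl2l11 or Pmaip1 remain within their intervals.

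In all 5 of 9 members did not overlap between the groups. Mcl1 and Bid lay above the MEFs, as did 21.9% of all genes, and Bcl2, Bcl2l1 and Bak1 lay below, as did 22.0% of all genes. An exact permutation test over the 21 splits of 5 arrays against 2 was run with the smaller tail multiplied by 2. In that form it cannot give a two-sided p under 0.0952, and so could pass no member.

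**Figure D2:**
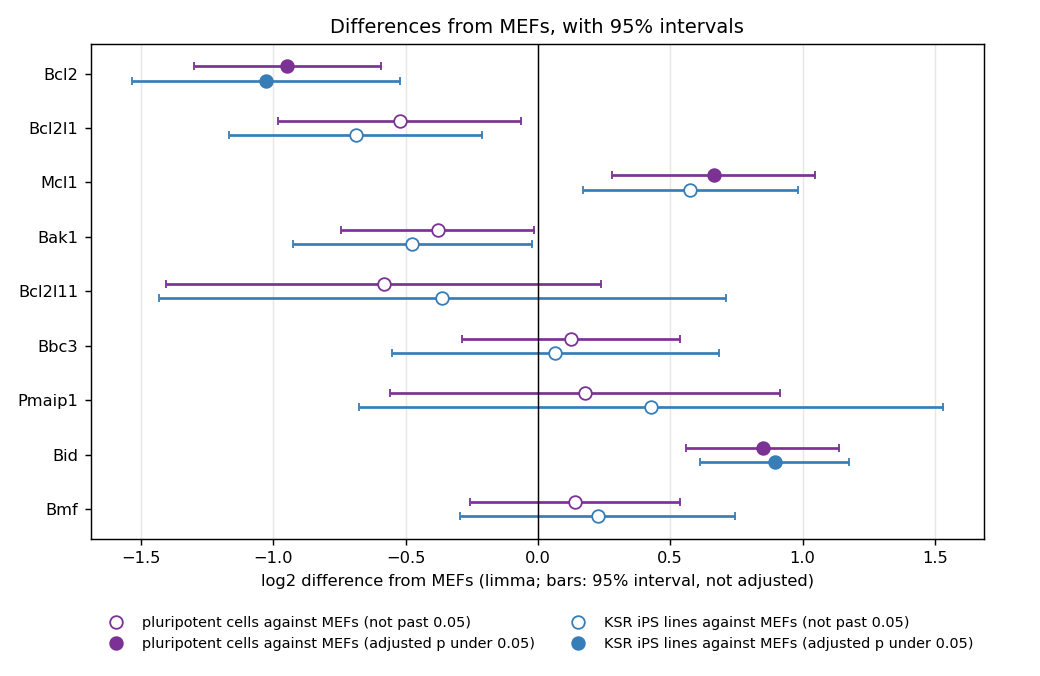
Log2 differences from MEFs (x axis) for 9 BCL2 family genes, with all 5 pluripotent arrays in purple and the 3 KSR iPS lines alone in blue. Bars are 95% intervals from limma before adjustment, and filled points passed an adjusted p of 0.05: Bcl2 at -0.95, Mcl1 at 0.66 and Bid at 0.85 for pluripotent cells, and Bcl2 at -1.03 and Bid at 0.89 for KSR lines.

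The KSR lines alone were set against the MEFs in a fit of 5 groups of cell and medium. This comparison shares its MEF arrays and 3 of its 5 pluripotent arrays with the one above. Bid rose by 0.89 ± 0.10 (SE; limma, adjusted p = 0.0130) and Bcl2 fell by 1.03 ± 0.18 (limma, adjusted p = 0.0294). Thus 1 of 9 members rose, against 12.1% of all genes, and 1 fell, against 14.3%. Mcl1 was 0.58 ± 0.14 higher and Bcl2l1 stood at -0.69 ± 0.17, neither past the threshold (limma, adjusted p = 0.0618 and 0.0595). Only the KSR lines gave a spread in this fit. When line O4-1 was left out limma called 0 genes, with 5804 at an unadjusted p under 0.05, and Bcl2 and Bid had an adjusted p of 0.113 and 0.0960. When O4-2 was left out limma also called 0, with 6924 at an unadjusted p under 0.05, and these genes had an adjusted p of 0.119 and 0.0528. Without line O4-4 the adjusted p of Bid was 0.0516, and without the iCD1 array that of Bcl2 was 0.0759.

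Genes that act around the BCL2 family were read from 6 lists of 80 genes, 69 of them measured. In the death receptor pathway 7 of 9 genes fell and 0 rose in pluripotent cells against MEFs (limma, adjusted p under 0.05), beside 17.5% and 15.6% of all genes, and the median difference was -0.92. Casp8, the initiator caspase that cuts BID, was at 4.33 in ES cells in 2i, 3.63 in line O4-1 in 2i and 4.32, 4.48 and 4.35 in lines O4-1, O4-2 and O4-4 in KSR, against 7.51 in iCD1 and 7.05 in FBS. It fell by 3.06 ± 0.24 (SE; limma, adjusted p = 6.29e-05). Tnfrsf1a, which encodes a TNF receptor, fell by 2.95 ± 0.17, Fas, a death receptor gene, fell by 1.63 ± 0.30 and Cflar, whose product FLIP restrains caspase 8, fell by 1.24 ± 0.20. Tradd and Fadd, adaptors of these receptors, fell by 0.92 ± 0.19 and by 0.77 ± 0.16, and the TRAIL receptor gene Tnfrsf10b fell by 0.91 ± 0.14. The ligand genes Fasl and Tnfsf10 were at 0.02 ± 0.13 and -0.11 ± 0.14 and did not pass, and neither exceeded 3.38 on any array. The list thus held pro-death and restraining genes among those that fell, while Bid, the substrate of caspase 8, rose. Leaving out each array in turn, as an alternative added after the data were seen, left between 5 and 7 of the 9 genes lower. Some markers of other cell types also fell. Of 8 macrophage markers 4 fell and 0 rose, beside 17.5% and 15.6% of all genes. Among them Lyz2 fell by 1.99 ± 0.61, while Cd68 stood at 0.495 ± 0.30 and did not pass. The mean of the 8 lay at 4.04 to 4.33 on the pluripotent arrays, against 4.78 in iCD1 and 4.58 in FBS. These means were below the medians of the arrays (4.97 to 5.03). Of 5 muscle markers 2 fell (Acta1 and Myh3) and 0 rose, beside the same shares of all genes. Their means were 5.07 to 5.38, against 5.62 in iCD1 and 5.82 in FBS. Of 6 endothelial markers 2 rose and 1 fell, beside the same shares of all genes. Pecam1 stood at 3.86 ± 0.32, Tek at 1.38 ± 0.14 and Kdr at -0.96 ± 0.20, while Cdh5, Tie1 and Emcn did not pass. Of 5 keratinocyte and 2 measured erythroid markers none passed in limma, also at an unadjusted p under 0.05. Whether such cells were present, and their part in the result, was not tested.

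**Figure D3:**
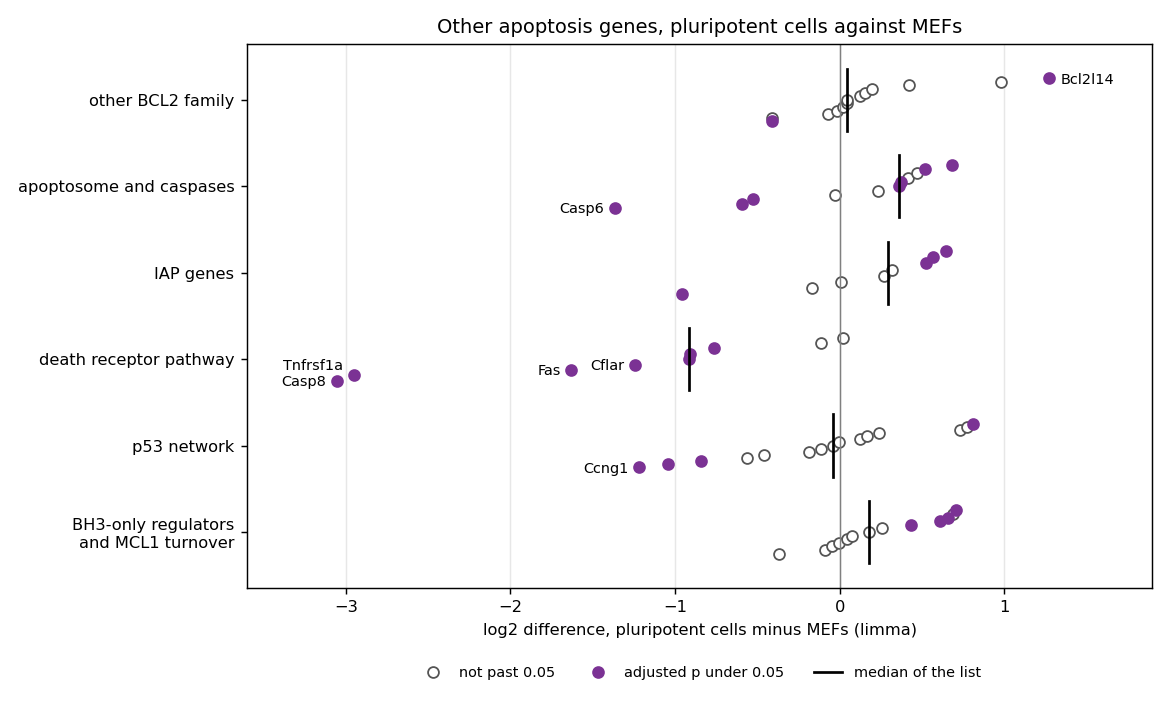
Log2 differences between pluripotent cells and MEFs (x axis) for the measured genes of 6 lists around the BCL2 family, with 1 point per gene, filled where limma's adjusted p was under 0.05, and a bar at the median of each list. The death receptor list has its median at -0.92 with Casp8 at -3.06, and the other medians lie between -0.04 and 0.36.

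The genes of the apoptosome and caspase list went both ways. Among its 11 measured genes, limma called 4 higher and 3 lower, beside 15.6% and 17.5% of all genes, and their median was 0.36. Diablo, whose product blocks IAP proteins, rose by 0.68 ± 0.18, Dffb, a DNA-cutting nuclease gene, by 0.52 ± 0.17, and the caspase genes Casp2 and Casp9 by 0.38 ± 0.12 and 0.36 ± 0.11. Casp6 fell by 1.36 ± 0.32 and Apaf1, the scaffold that activates caspase 9, fell by 0.60 ± 0.18, as did the mitochondrial protease gene Htra2, which fell by 0.53 ± 0.15. Cycs, cytochrome c, was 0.41 ± 0.19 higher without passing (limma, adjusted p = 0.140). When any 1 of the 7 arrays was left out, 1 or 2 genes of the list rose and 1 or 2 fell. Of 8 IAP genes, which encode caspase inhibitors and their relatives, 3 rose, beside 15.6% of all genes, and 1 fell, beside 17.5%, with a median of 0.29. Birc2 rose by 0.64 ± 0.13, Naip6 by 0.57 ± 0.12 and Birc5 (survivin, also a mitosis gene) by 0.52 ± 0.16, and Birc3 fell by 0.96 ± 0.18. Naip6 was low throughout and did not exceed 3.04 on any array. Without the iCD1 array 1 rose and 0 fell.

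Of 13 other BCL2 family genes 1 rose and 1 fell, fewer in each direction than the 15.6% and 17.5% of all genes, and the median was 0.05. Bcl2l14 rose by 1.27 ± 0.28 (limma, adjusted p = 0.00820) and the BH3-only gene Bad fell by 0.41 ± 0.13 (limma, adjusted p = 0.0399). The fall of Bad was lost in 6 of the 7 fits that left out 1 array, and the rise of Bcl2l14 without either MEF array. Bik, another BH3-only gene, was 0.42 ± 0.14 higher (limma, adjusted p = 0.0515) and Bcl2l2, which encodes the pro-survival BCL-W, stood at -0.41 ± 0.24 (limma, adjusted p = 0.242). Of 15 p53 network genes 3 fell, a share close to the 17.5% of all genes, and 1 rose, beside 15.6% of all genes, with a median of -0.04. Ccng1 fell by 1.22 ± 0.19, Phlda3 fell by 1.04 ± 0.15 and the locus of ARF and INK4a, Cdkn2a, fell by 0.84 ± 0.22, while the p53 relative Trp73 rose by 0.81 ± 0.24. Leaving out 1 array gave 2 to 4 genes lower and 0 or 1 higher. The p53 targets Bbc3 and Pmaip1 were not among the genes that changed. The list of regulators of BH3-only genes and of MCL1 turnover also held the channel genes Vdac1, Vdac2 and Vdac3. Of its 13 genes 4 rose, beside 15.6% of all genes, and 0 fell, beside 17.5%, with a median of 0.18. These were the ubiquitin ligase genes Huwe1, by 0.43 ± 0.10, and Fbxw7, by 0.71 ± 0.13, both of which target MCL1, the deubiquitinase gene Usp9x, which stabilises MCL1, by 0.66 ± 0.21, and the channel gene Vdac1 by 0.61 ± 0.20. Leaving out 1 array gave 1 to 4 genes higher. Genes named as rising or falling in these lists had adjusted p between 2.42e-05 and 0.0489 in limma.

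The 2i cultures were compared with the KSR iPS lines to ask whether the family differed between these pluripotent cultures. In 2i 1 array was of ES cells and 1 of iPS cells, while all KSR arrays were of iPS lines. Cell origin and medium thus cannot be told apart in this comparison. No member passed the test, and limma called 0 of 19938 genes (0%), with 1799 genes (9.02%) at an unadjusted p under 0.05 and 0 of the 9 members among them. All 3 pro-survival members were higher in 2i without passing, and 4 of the 5 BH3-only members were lower without passing. Of all 19938 genes 10448 were higher and 9480 lower. In line O4-1 alone 2 of the 3 pro-survival members were higher in 2i, Mcl1 being lower, and 4 of the 5 BH3-only members were lower. Bcl2l1 was at 6.79 in ES cells and 6.44 in line O4-1 in 2i, against 6.24, 5.96 and 6.38 in the KSR lines, and was the member whose groups did not overlap, as was so for 12.9% of all genes in this direction. Its difference was 0.42 ± 0.17 (SE; limma, adjusted p = 0.556, 95% interval -0.06 to 0.90). Mcl1 differed by 0.22 ± 0.14, Bcl2 by 0.21 ± 0.18, Bak1 by 0.24 ± 0.16, Bbc3 by 0.15 ± 0.21, Bid by -0.11 ± 0.10 and Bmf by -0.21 ± 0.18, with adjusted p between 0.642 and 0.823 in limma. ES cells in 2i and line O4-1 in 2i, each set against the same KSR lines, likewise gave 0 called genes in limma, with 1746 (8.76%) and 1339 (6.72%) at an unadjusted p under 0.05.

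The widest intervals between 2i and KSR were those of Pmaip1 and Bcl2l11, where the KSR lines themselves were divided. Pmaip1, which encodes NOXA, an antagonist of MCL1, was at 6.35 in ES cells and 6.18 in line O4-1 in 2i, against 7.12 (O4-1), 7.29 (O4-2) and 6.26 (O4-4) in KSR. Lines O4-1 and O4-2 were high, whereas O4-4 lay at the level of both 2i arrays. The difference of 2i from KSR was -0.62 ± 0.38 (SE; limma, adjusted p = 0.633, 95% interval -1.73 to 0.48). Bcl2l11, whose product BIM is marked for degradation by ERK, was at 5.72 in ES cells and 6.32 in line O4-1 in 2i, against 6.86 (O4-1), 6.90 (O4-2) and 5.96 (O4-4) in KSR. Line O4-4 again lay between the 2i arrays. The difference was -0.55 ± 0.37 (SE; limma, adjusted p = 0.659, 95% interval -1.62 to 0.52). Bmf, at 5.93 and 6.21 in 2i and at 6.40, 6.44 and 6.01 in KSR, had the same order of lines. Without line O4-4 the differences from KSR were -0.94 for Pmaip1, -0.86 for Bcl2l11 and -0.35 for Bmf, each past no threshold (limma, adjusted p = 0.408).

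**Figure D4:**
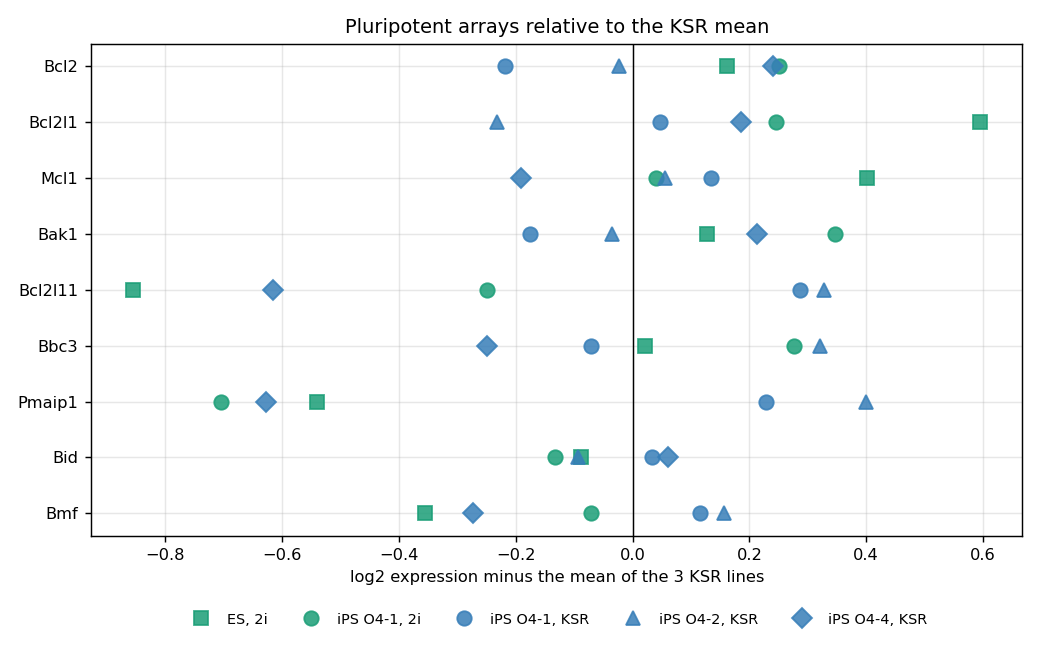
Log2 expression of each pluripotent array minus the mean of the 3 KSR lines (x axis) for 9 BCL2 family genes, with 2i arrays in green and KSR lines in blue. For Pmaip1, Bcl2l11 and Bmf the diamond of line O4-4 lies left of 0 with the 2i arrays, while lines O4-1 and O4-2 lie right of 0.

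Line O4-4 was set beside its sister lines as a description, without a test, since it is a single array. Over the 9 members the root mean square difference was 0.25 between O4-4 and line O4-1 in 2i and 0.28 between O4-4 and ES cells in 2i. It was 0.50 and 0.56 between O4-4 and lines O4-1 and O4-2 in KSR, and 0.20 between those lines. The whole arrays had the same order, with 193 and 256 genes 2-fold apart between O4-4 and the 2i arrays of O4-1 and ES cells, and 310 and 564 between O4-4 and O4-1 and O4-2 in KSR. Relative to the mean of O4-1 and O4-2, O4-4 was at -0.94 for Pmaip1, -0.92 for Bcl2l11, -0.41 for Bmf and -0.38 for Bbc3, and at 0.36 for Bcl2, 0.32 for Bak1 and 0.28 for Bcl2l1. No member reached 2-fold, as did 1.82% of all genes. In the p53 network list 14 of 15 genes were lower in O4-4, against 49.2% of all genes, with a median of -0.31 beside 0 for all genes. Zmat3 was at 6.22 in O4-4, against 7.13 and 7.08 in O4-1 and O4-2, Sesn2 at 7.50 against 8.32 and 8.22, and Trp73 at 4.77 against 5.57 and 5.60. The regulators of BH3-only genes and of MCL1 turnover did not share this direction, as 9 of 13 were higher in O4-4, with a median of 0.15. In that list Foxo1, a transcription factor gene that can drive Bcl2l11, differed by -0.86, but its relative Foxo3 by only -0.05. The transcription factor genes Egr1 and Ddit3 of that list differed by 1.40 and 0.41. Bnip3, a mitophagy gene and the 1 gene of 13 in the other BCL2 family list past 2-fold, was at 6.42 in O4-4, against 8.01 and 8.83 in the others. The mean of the fibroblast markers was 7.87 in O4-4 and 7.43 and 7.36 in O4-1 and O4-2. Col1a1, Col1a2, Col3a1, Postn, Fn1 and Prrx1 were higher in O4-4, Postn by 1.68. Thy1 (-0.36), Pdgfra (-0.42), Twist2 (-0.29) and Vim (-0.008) were lower. The mean of the pluripotency markers was 9.84 in O4-4 and 9.94 and 9.77 in O4-1 and O4-2. Nanog (1.5), Esrrb (1.03), Zfp42, Dppa5a, Sox2 and Sall4 were higher, and Utf1 (-2.22), Lin28a (-1.02), Tdgf1 and Pou5f1 lower. The part of either marker set in these differences was not tested.

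Line O4-1 was on an array in both media, 1 array each and so with no test. Pmaip1 was at 6.18 in 2i and 7.12 in KSR, a difference of -0.93, and Bcl2l11 at 6.32 and 6.86, a difference of -0.54. Bak1 was at 7.16 in 2i and 6.64 in KSR (0.52) and Bcl2 at 4.18 and 3.71 (0.47). The remaining members differed by 0.35 or less in size, among them Mcl1, at 10.18 in 2i and 10.27 in KSR (-0.095). Of the 9 members 0 reached 2-fold, as did 1.43% of all genes. In this line Pmaip1 had the largest difference of the 9 members. Of the 15 p53 network genes 12 were lower in 2i, as were 9220 of all 19938 genes. Their median was -0.137 beside 0.015 for all genes. The lean of this list towards lower values was thus not particular to line O4-4, though both comparisons use the KSR array of O4-1.

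ES cells and line O4-1 were also compared within 2i, again 1 array against 1. Bcl2l11 was at 5.72 in ES cells and 6.32 in iPS cells. Mcl1 was at 10.54 in ES cells and 10.18 in iPS cells (0.36) and Bcl2l1 at 6.79 and 6.44 (0.35). The third pro-survival gene, Bcl2, was at 4.09 in ES cells and 4.18 in iPS cells (-0.09). No member reached 2-fold, as did 0.978% of all genes.

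The fibroblast arrays were compared for the effect of medium in MEFs, with no replicate. Bcl2l11 was at 7.30 in iCD1 and 6.57 in FBS, a difference of 0.73, the largest among the members. Bid was at 5.53 in iCD1 and 5.86 in FBS (-0.34), Mcl1 at 9.71 and 9.41 (0.30), Bmf at 6.20 and 5.91 (0.28) and Bbc3 at 5.21 and 5.49 (-0.28). Bcl2l1 was at 6.87 in iCD1 and 6.89 in FBS, and Bcl2, Bak1 and Pmaip1 differed by 0.22 or less in size. No member reached 2-fold, as did 2.70% of all genes. Of the 15 p53 network genes 11 stood above FBS in iCD1, as did 8932 of all 19938 genes. The median of the 15 was 0.39 beside -0.02 for all genes. Among the 15 only 1 reached 2-fold, Trp53inp1, at 9.50 in iCD1 against 8.32 in FBS. The apoptosome and caspase list was split, with 6 genes higher and 5 lower in iCD1, Casp6 at 7.75 in iCD1 and 6.92 in FBS (0.83) and Cycs at 9.21 and 9.94 (-0.73). Of the 9 death receptor genes 6 were higher and 3 lower in iCD1, with Fas at 6.35 in iCD1 and 5.47 in FBS.

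The 3 members with the widest range over the 7 arrays were Bcl2l11 with 1.58, Bcl2 with 1.33 and Mcl1 with 1.13. For each, the 3 genes with the smallest root mean square distance between centred profiles over the 7 arrays were looked up, as a description. They were Cyb5d2, Kif21a and Lgr4 for Bcl2l11, at distances of 0.15, 0.19 and 0.20. They were Glt8d2, Ctdsp2 and Dynlrb1 for Bcl2, at 0.08, 0.09 and 0.09, and Ormdl2, Necab3 and Cenpw for Mcl1, at 0.09, 0.10 and 0.11. The receptor gene Lgr4, for example, was at 7.80 in ES cells in 2i, 7.92 in line O4-1 in 2i and 8.62, 8.81 and 7.72 in lines O4-1, O4-2 and O4-4 in KSR, against 8.71 in iCD1 and 8.30 in FBS, with O4-4 apart from its sister lines as for Bcl2l11.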

How the data were processed

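Total RNA was hybridised to 7 Affymetrix arrays, and each deposited value is the log2 level of a probe set. The submitters' processing notes name RMA and Partek without versions, and other settings of the authors are unknown here. The values were not normalized again. Of 28853 probe sets 21789 had 1 gene symbol in the array's annotation, and the one with the highest mean stood for its gene (19938 genes). Titles and growth conditions set the groups. The labels conflict elsewhere: all descriptions name iPS cells early after infection, the ES source names fibroblasts and the iPS source names iCD1.

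limma 3.58.1 (R 4.3.3) gave two-sided tests, adjusted over all genes by Benjamini and Hochberg at 0.05. Pluripotent cells and MEFs formed 2 groups in 1 fit with 5 residual degrees of freedom, and line O4-1 entered it with 2 arrays. The other tests came from 1 fit of 5 groups with 2 residual degrees of freedom, in which groups of 1 array take their spread from the KSR lines. Arrays compared 1 with 1 have no test. The fits were tested on simulated data. Alternatives changed the normalization, a filter on dim genes, the probe set, limma's prior, the design and the arrays used. Members and lists were chosen with earlier results of these data known. The named genes were all members, genes of the lists, and the nearest profiles of the 3 members with the widest range.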

Additional observations from a re-analysis of the deposited data

How the results depend on the processing

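For pluripotent cells against MEFs, Bid passed in all 12 alternatives and Bcl2 in all 11 that kept it, with differences of 0.68 to 1.02 and of -1.03 to -0.86. Mcl1 passed in 11 of 12 (0.52 to 0.81). The filter on dim genes removed Bcl2, which left 0 members lower. Leaving out 1 array gave 1 to 2 members higher, 1 to 2 lower and 2020 to 3049 genes higher, the lowest without the iCD1 array, and Bbc3 ran from -0.02 to 0.27. For KSR lines against MEFs, 2 members (Bid and Mcl1) were higher under the filter on dim genes, under limma's trend and robust prior and in the fit of these arrays alone, and 2 (Bcl2 and Bcl2l1) were lower under that prior and in that fit. Leaving out 1 array gave 0 to 1 members higher, 0 to 1 lower, 0 to 1752 genes higher and 0 to 2195 lower, and Bbc3 ran from -0.09 to 0.21. The cause was not tested. Leaving out 1 KSR line turned values that passed no test: line O4-1 in 2i against KSR ran from -0.06 to 0.11 for Mcl1 and from -0.21 to 0.01 for Bmf, and ES cells against KSR from -0.1 to 0.18 for Bbc3. 2i against KSR gave 0 called genes in limma under every alternative, with 830 to 2442 at an unadjusted p under 0.05. No paired analysis was possible because the groups compared share fewer than 2 line numbers, O4-1 alone being in both KSR and 2i.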
